A study of Drosophila melanogaster with 2 samples.

Results

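Distal intergenic peaks were the thresholded HmgZ peaks whose summit lay in no annotated gene body and more than 1000 bp from the nearest transcription start site (TSS) of any gene. They numbered 410 of 6844 peaks, 5.99% (95% Wilson interval 5.45 to 6.58, counting error only), and 14.1% of the 2908 peaks with a summit outside genes. The rule used positions alone and no measured level. Of the 410, 128 lay within 1000 bp of a gene 3' end and are called near-end peaks, and 282 lay more than 1000 bp from every start and every 3' end and are called far peaks. The peaks are named D1 to D410 in order of the deposited pooled signal.

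The chromatin came from whole Drosophila melanogaster embryos aged 4 to 24 h, with males and females pooled, of a transgenic line that stably expresses HmgZ with GFP fused at its C-terminus. The labels do not name the promoter that drives the fusion or say whether the endogenous gene remained intact. The labels put both samples in 1 group, as biological replicates 1 and 3, so there were 2 replicates of a single condition. The description field calls both samples input controls, while the antibody field and the assay title name an HmgZ ChIP, and they were treated as ChIP samples. The age is that of the source name, since the value in the age field is not a possible one. Both replicates were called against 1 shared control alignment, and an untagged control line was not analysed here. The peak lists carry no read counts, and sequencing depth is therefore unknown. With 2 replicates the smallest two-sided exact p is 0.5, so no test over samples was made, and differences between sets of peaks are given with their counting intervals. All coordinates are on dm6.

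HmgZ is a small chromatin protein of the HMG-box family. An HMG box binds in the minor groove of DNA and bends it, and proteins of this type recognise sequence only loosely. Sequence outside genes and away from starts holds enhancers, which act on distant promoters, and insulator elements bound by zinc finger proteins such as CTCF and Su(Hw), which separate neighbouring regulatory domains. Cross-linked chromatin can bring down DNA that a protein contacts through other proteins, so a peak does not show direct contact with the bases under it.

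Of 19 motifs searched, the one whose share in these peaks most exceeded that in distal intergenic sequence was the core of the CTCF recognition sequence. It was read as AG, then A or G, then G or T, then GGCGC, on either strand. The core was found within 100 bp of the summit in 28 members, 6.83% (4.77 to 9.69), against 2.41% of all thresholded peaks. The next lines show 8 of these members, to let the cores be compared, read in the direction of the core, with 8 bases on each side. Capitals mark the core.
D42: cagcggttAGATGGCGCattcgaaa
D53: ttgttaatAGATGGCGCtagtcgat
D77: cttttgctAGATGGCGCttttttag
D86: ttgcctatAGGTGGCGCggattaca
D106: aggccgccAGATGGCGCgcatatga
D114: cactcggtAGATGGCGCtatacgcc
D115: tggccgatAGGTGGCGCcagtcaat
D128: aaggccctAGATGGCGCcagtaaat
In these lines the core read AGATGGCGC or AGGTGGCGC. Over all 35 core sites in members, the variable positions held A at the third base in 24 sites and T at the fourth in 33 sites. The base just before the core was T in 26 of 35 sites (74.3%), against 26.3% of 495 sites in windows tiled over the sequence where members could lie. At each flanking position the base compared was the most common one in these same sites, and the position shown had the largest difference. Its excess was therefore set in part by the choice and is no separate support. The 35 sites came from 28 members.

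The summit and 100 bases on each side of it follow for 9 named members, as RefSeq gives the assembly, to show what the motifs look like in place. In the first group, capitals mark the CTCF core as matched above.
D77, chr3R:16497476-16497676, plus strand: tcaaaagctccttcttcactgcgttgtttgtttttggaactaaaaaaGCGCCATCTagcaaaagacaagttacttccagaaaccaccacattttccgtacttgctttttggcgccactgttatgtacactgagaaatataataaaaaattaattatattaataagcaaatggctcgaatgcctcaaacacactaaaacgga
D285, chrX:15594603-15594803, plus strand: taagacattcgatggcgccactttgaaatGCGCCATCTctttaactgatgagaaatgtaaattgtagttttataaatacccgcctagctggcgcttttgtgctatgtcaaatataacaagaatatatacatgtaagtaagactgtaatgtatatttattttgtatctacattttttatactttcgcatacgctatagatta
In both the core lay on the minus strand, so the capitals show its reverse complement.
In the second group, capitals mark the core of Su(Hw), another zinc finger insulator protein, read as TGCATA followed by 3 bases that are each C or T, on either strand.
D21, chr4:497786-497986, plus strand: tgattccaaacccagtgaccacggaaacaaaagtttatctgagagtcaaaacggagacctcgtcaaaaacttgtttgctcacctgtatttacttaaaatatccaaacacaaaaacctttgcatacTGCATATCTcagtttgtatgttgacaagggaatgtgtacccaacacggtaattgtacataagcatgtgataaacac
D84, chr3L:20711543-20711743, plus strand: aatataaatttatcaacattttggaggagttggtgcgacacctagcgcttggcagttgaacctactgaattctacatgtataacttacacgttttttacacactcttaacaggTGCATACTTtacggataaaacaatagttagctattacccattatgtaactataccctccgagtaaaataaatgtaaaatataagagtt
D131, chrX:13334919-13335119, plus strand: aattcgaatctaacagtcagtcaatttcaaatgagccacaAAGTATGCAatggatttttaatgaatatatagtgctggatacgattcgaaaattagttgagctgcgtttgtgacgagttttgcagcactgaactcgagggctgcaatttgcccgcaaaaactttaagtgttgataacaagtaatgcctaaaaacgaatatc
In D131 the core lay on the minus strand.
The third group holds 4 of the members of highest level, which had neither core, and no letters are marked.
D3, chr3R:8355637-8355837, plus strand: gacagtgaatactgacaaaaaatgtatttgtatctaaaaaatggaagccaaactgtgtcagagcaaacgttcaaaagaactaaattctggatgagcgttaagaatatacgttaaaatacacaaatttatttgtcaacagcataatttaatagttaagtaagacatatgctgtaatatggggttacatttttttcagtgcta
D4, chr3R:14053512-14053712, plus strand: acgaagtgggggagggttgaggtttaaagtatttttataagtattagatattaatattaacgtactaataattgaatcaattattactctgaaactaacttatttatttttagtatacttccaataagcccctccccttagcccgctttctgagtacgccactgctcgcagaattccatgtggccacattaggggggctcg
D5, chr3R:12403037-12403237, plus strand: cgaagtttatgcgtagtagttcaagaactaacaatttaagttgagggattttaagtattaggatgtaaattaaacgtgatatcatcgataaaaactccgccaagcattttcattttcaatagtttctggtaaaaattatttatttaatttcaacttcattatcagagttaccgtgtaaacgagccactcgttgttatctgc
D6, chr2L:1638730-1638930, plus strand: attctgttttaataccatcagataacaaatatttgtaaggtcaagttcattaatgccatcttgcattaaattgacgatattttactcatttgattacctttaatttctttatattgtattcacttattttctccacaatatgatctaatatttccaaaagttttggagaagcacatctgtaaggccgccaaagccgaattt
Their G+C content was 29.9% in D3, 38.3% in D4, 31.3% in D5 and 29.4% in D6, and 3 of the 4 lay below the lower quartile of the members, 32.8%.

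The CTCF core was also concentrated at the summits. Sites occurred at 0.555 per kb of member sequence within 50 bp of the summit, at 0.317 per kb between 50 and 100 bp and at 0.0488 per kb between 100 and 250 bp. In tiles of the same length over the intergenic sequence more than 1000 bp from any TSS, called eligible sequence, the core was present in 0.325%, or in 0.279% when tiles were weighted to the G+C content of the members. The share in members was 21.01 times the unweighted one. The tiles, here and for the other motifs, were not limited to sequence that occurs once in the assembly. Near-end peaks held the core in 13 of 128 (10.2%) and far peaks in 15 of 282 (5.32%). Among other classes the share was 6.41% in the 312 intergenic peaks between 250 and 1000 bp from a TSS, 2.09% in the 1245 intronic peaks over 1000 bp from a TSS and 1.60% in the 4004 promoter peaks, those within 250 bp of a TSS. The share in the closer intergenic peaks lay inside the interval of the distal ones, so the core was not particular to distal peaks.

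The CTCF core followed peak strength. Distal intergenic regions below the threshold were examined in the deposited pooled list of 30000 regions. The core was in 17 of 807 such regions after the thresholded set and up to rank 15000, 2.11% (1.32 to 3.35), and in 16 of 2008 from there to rank 30000, 0.797% (0.491 to 1.29). The intervals of all 3 rank classes were separate. Within the members, the 26 with a core and a level in both replicates had medians of 2.93 times the list median in replicate 1 and 3.71 in replicate 3, against 2.72 and 3.17 in the 358 without one. The number of members with a core limits the precision of this last comparison.

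The Su(Hw) core was present in 28 members, 6.83% (4.77 to 9.69), against 2.51% of all peaks and 2.44% of eligible tiles. Its sites also lay mostly near the summit, at 0.435 per kb within 50 bp and 0.122 per kb between 100 and 250 bp. Su(Hw) cores were in 7.81% of near-end and 6.38% of far peaks. In the regions below the threshold the share was 5.20% (3.87 to 6.96) up to rank 15000 and 3.39% (2.68 to 4.27) from there to rank 30000. A CTCF or a Su(Hw) core was in 53 members, 12.9% (10 to 16.5), and 3 members held both.

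Motifs of housekeeping promoters were scarcer in members than in peaks at large. The site of BEAF-32, an insulator protein found mainly beside gene starts, was read as CGATA followed by C or G. It occurred in 37 members (9.02%), against 22.3% of all peaks and 7.45% of tiles. The DNA replication-related element (DRE), bound by DREF, was read as ATCGAT with A or T on each side, and shares the letters CGAT with the BEAF-32 site. It occurred in 13 members (3.17%, 1.86 to 5.35), against 12.4% of all peaks, 19.5% of promoter peaks and 1.92% of tiles. The core of M1BP, GGTCACAC, occurred in 4 members (0.976%, 0.380 to 2.48), against 6.17% of all peaks and 0.270% of tiles. The Ohler 6 motif, given here by name, was in 2 (0.488%, 0.134 to 1.76), against 1.61% of all peaks and 0.288% of tiles. Any of DRE, M1BP core and Ohler 6 was in 4.63% of members. The share was 4.49% in intergenic peaks between 250 and 1000 bp from a TSS and 2.25% in intronic peaks over 1000 bp from one. For BEAF-32 these 2 classes had 11.9% and 10.3%. The low shares were thus not particular to distal intergenic peaks.

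The members were not uniform in this respect. A DRE was in 10 of the 128 near-end peaks (7.81%) but in 3 of the 282 far peaks (1.06%). Any of DRE, M1BP core and Ohler 6 was in 9.38% of near-end peaks (5.44 to 15.7), 2.48% of far peaks (1.21 to 5.03), 29.3% of promoter peaks and 2.46% of tiles. The 2 intervals did not overlap. GAGA factor sites, GAGAG, showed the opposite order: 23.4% of all members held one, against 25.0% of all peaks, with 14.1% in near-end and 27.7% in far peaks, and 21.0% of tiles. For both contrasts the tiles cover all eligible sequence, of which 8.67% lay within 1000 bp of a gene end. No tile share was computed for near-end sequence alone. GAGA factor is a zinc finger protein of active and Polycomb-regulated chromatin.

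**Figure D1:**
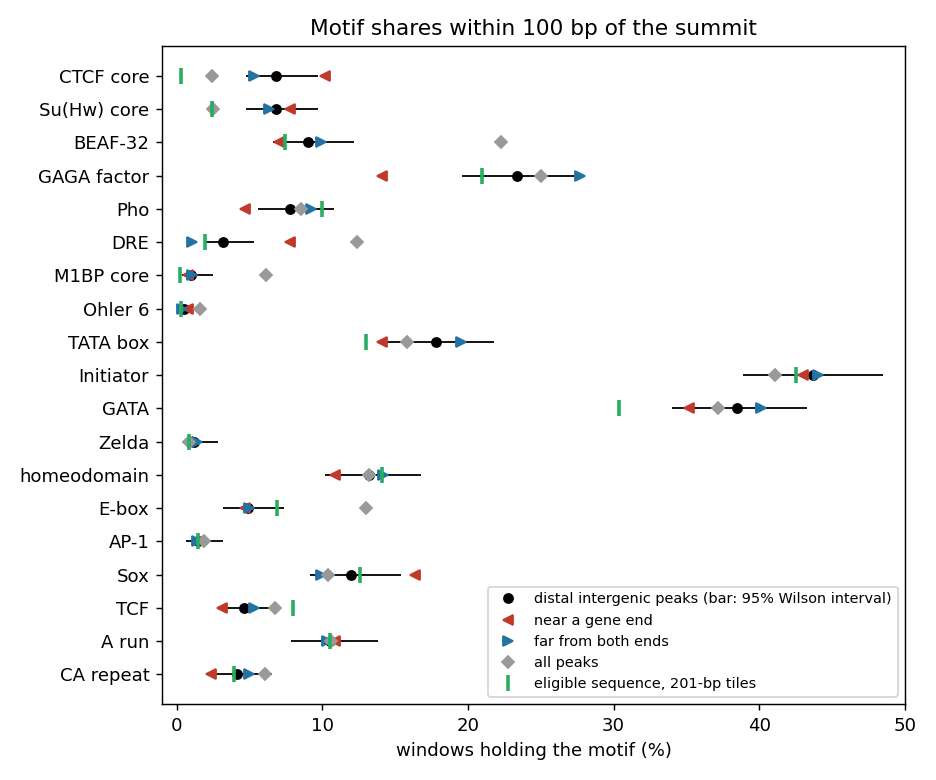
Share of windows within 100 bp of the summit that held each of 19 motifs (x axis, percent), for the 410 distal intergenic peaks, their near-end and far classes, all 6844 peaks and tiles of eligible sequence; bars are 95% Wilson intervals of the members. CTCF and Su(Hw) cores lie above all peaks and above the tiles, while BEAF-32, DRE and M1BP cores lie well below all peaks.

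Except for the E-box, shares of the sites of developmental regulators were close to those in all peaks. GATA sites, GATA with A or T before and A or G after, were in 158 members (38.5%, 34.0 to 43.3), against 37.2% of all peaks and 30.4% of tiles (33.4% when weighted to G+C). The interval lay above both tile shares. The shares for Zelda, CAGGTAG, were 1.22% of members and 0.847% of all peaks. For the homeodomain core TAATTA they were 13.2% and 13.2%, for AP-1, TGA then C or G then TCA, 1.46% and 1.86%, and for the E-box CAGCTG 4.88% and 13.0%. In tiles the shares were 0.880% for Zelda, 14.1% for the homeodomain core, 1.44% for AP-1 and 6.87% for the E-box.

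Binding letters of other HMG-box proteins were not more frequent at the members than in eligible sequence. The Sox core ACAATG was in 12.0% of members (9.16 to 15.4), 10.4% of all peaks and 12.6% of tiles. The TCF site, CTTTGA then A or T, was in 4.63% of members (2.99 to 7.12), 6.79% of all peaks and 8.02% of tiles, so its share lay below that of the tiles. A Pho site, GCCAT then A, C or T, then A or T, then C or T, which can overlap a CTCF core read on the other strand, was in 7.80% of members, 8.56% of all peaks and 10% of tiles.

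Core promoter letters and simple runs differed little between sets. The TATA box, TATAAA then A or G, was in 17.8% of members and 15.8% of all peaks, and the Initiator, TCA then G or T, T, and C or T, in 43.7% and 41.1%. A run of 8 A was in 10.5% and 10.6%, and CACACACA in 4.15% and 6.09%. These matches are letters in a window and do not show that the named factor was bound.

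A count of all 7-letter words, made with the results in view, gave 4 words at the head of the list that overlap the CTCF core: GCGCCAC, then ATGGCGC, then GGCGCTA and then GGCGCCA. They were in 3.90% to 7.56% of members and 5.04 to 5.51 times as frequent as in tiles weighted to the same G+C. The next 3 words share letters with each other and match none of the 19 motifs: GTGTAGA, then AGTGTAG and then CAGTGTA. Any of these 3 was in 63 members, 15.4% (12.2 to 19.2), against 7.71% of all peaks and 3.79% of tiles. The near-end share was 15.6% and the far share 15.2%, and 35 of 98 matches in these windows lay within 50 bp of the summit, against 23 of 35 CTCF sites. A total of 8 of the 63 members also held a CTCF core. All of these words were picked for their high ratio to tiles in these same members. Their excess over tiles was therefore set by the choice, and the shares and interval are no separate support for it.

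Base composition around the summit separated near-end from far peaks. Median G+C within 100 bp was 36.8% in members (quartiles 32.8 and 42.7), 38.8% in all peaks, 39.8% in promoter peaks and 41.3% in eligible tiles. Far peaks had a trough at the summit, with 37.1% in the 25 bp just before it and 43.9% at 226 to 250 bp before it. Near-end peaks had a local rise, with 40.7% in the 25 bp before the summit and 34.3% at 226 to 250 bp before it. Both shapes were seen on both sides of the summit. Repeat-masked bases made up a median of 16.9% of member windows. Of all eligible bases pooled, which is not a median over windows, 27% were masked. Only 1 member lay in an annotated transposable element, and such elements cover 11.4% of eligible bases. The summit lay on a 32-mer that occurs once in the assembly in 409 members, while 72.2% of eligible bases did. Whether reads could be placed in the elements was not tested.

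**Figure D2:**
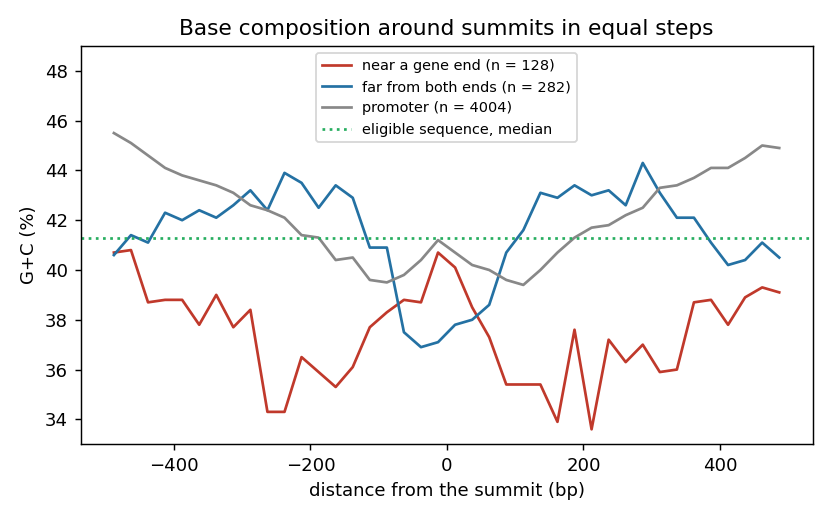
Mean G+C content (percent) in steps of 25 bp against distance from the summit (bp) for near-end, far and promoter peaks, with the median of eligible tiles as a dotted line. Far peaks fall at the summit and near-end peaks rise there from lower flanks.

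Peaks crowded towards gene ends. Eligible sequence came to 33.9 Mb, 25.3% of the 6 arms analysed, and 8.67% of it lay within 1000 bp of a gene 3' end, where 31.2% of the members lay (26.9 to 35.9). The density was 43.5 peaks per Mb near ends (95% Poisson interval 36.3 to 51.7) and 9.10 per Mb far from both ends (8.07 to 10.2), a ratio of 4.78. In the bases whose 32-mer occurs once in the assembly, the densities were 46.1 and 12.9 per Mb and the ratio was 3.57. Where reads could in fact be placed was not tested. The ratio was 4.64 in the strongest 6844 regions of replicate 1 alone and 4.80 in those of replicate 3.

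The density fell with distance from the end. It was 80.4 per Mb within 250 bp (61.8 to 103), 39.2 between 250 and 500 bp, 25.6 up to 1000 bp, 15.5 up to 2000 bp and 13.9 up to 5000 bp. Beyond 10000 bp it was 3.83, or 8.20 in unique sequence. Inside gene bodies, at the same distance from starts, the density within 250 bp of an end was 16.1 per Mb (12.1 to 21.1). It was 9.88 between 250 and 500 bp (6.51 to 14.4), 10.3 up to 1000 bp (7.59 to 13.6), 16.1 up to 2000 bp and 27.3 up to 5000 bp (24.8 to 30.1). Within 250 bp of an end the density was thus lower inside genes than outside them, with separate intervals, and the rise over the last 1000 bp inside genes was within overlapping intervals.

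**Figure D3:**
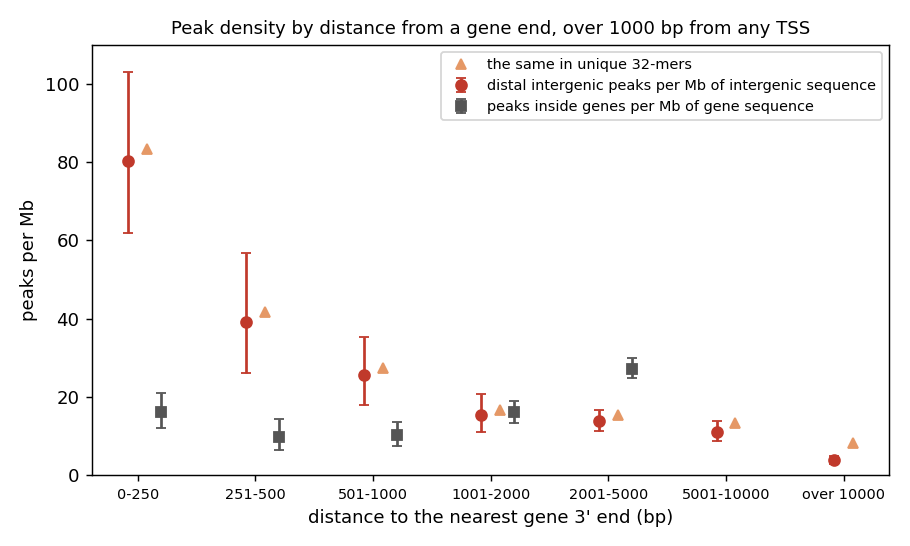
Peaks per Mb (y axis) by distance from the nearest gene 3' end (x axis, bp) for distal intergenic peaks, the same in unique 32-mers, and peaks inside genes, all over 1000 bp from any TSS; bars are 95% Poisson intervals. Intergenic density falls from 80.4 per Mb within 250 bp of an end, while the density inside genes is 16.1 per Mb there, with lower values to 1000 bp and its highest value, 27.3, between 2000 and 5000 bp.

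Gap length, the distance between the 2 genes on either side, moved with this result and was therefore held within classes. In gaps of up to 5000 bp the density was 60.6 per Mb near ends (48.7 to 74.5) and 23.0 far from both ends (16.0 to 32). In gaps over 5000 and up to 20000 bp it was 27.7 (18.8 to 39.3) and 14.2 (12.0 to 16.5), and in longer gaps 20.8 (8.35 to 42.8) and 4.82 (3.87 to 5.94). Near-end density was above far density in each class, and the intervals over all eligible bases were separate in all 3. In unique sequence the densities, in the same order, were 63.8 and 24.9, 29.0 and 15.5, and 23.6 and 8.67 per Mb. No intervals were computed for unique sequence, so separation there is not known. The longest class rests on 7 near-end peaks. Distance from a start showed a similar fall, from 28.4 per Mb at 1000 to 2000 bp from a TSS (23.7 to 33.8) to 9.13 at 5000 to 10000 bp. Near-end peaks lay nearer to a TSS than far peaks, at medians of 2084 and 3616 bp. Distance from a start was not held in the comparison of near-end with far density, and its part there was not tested.

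Members lay in shorter gaps than eligible sequence does. The median gap was 9.47 kb for members, 2.94 kb for near-end and 12.3 kb for far peaks, against 22.8 kb over eligible bases. These bases include sequence that is not unique, and no median was computed over unique sequence. Gaps over 20000 bp held 18.6 Mb of eligible sequence, of which 10.3 Mb was unique. Convergent gaps, between 2 gene ends, held 28.5% of members and 27.1% of eligible bases. Divergent gaps, between 2 starts, held 23.2% (19.3 to 27.5) of members and 18.8% of bases, and tandem gaps 48.3% and 49.9%. Among near-end peaks 49.2% were in convergent gaps, against 48.7% of the near-end bases, so convergent and tandem ends did not differ in density (44.0 and 43.1 per Mb). Among far peaks, divergent gaps had 14.9 per Mb (12.1 to 18.2), convergent gaps 6.97 (5.24 to 9.09) and tandem gaps 8.63 (7.22 to 10.2). In unique sequence these became 17.9, 10.4 and 12.0 per Mb, in the same order of divergent above the rest. Distance from a start and gap length were not held within classes here, and their part in this order was not tested.

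Genes whose ends carried a peak were compared with other genes for a peak at their start. A summit lay no more than 250 bp from a TSS in 32.8% of all 13945 protein-coding genes. Of the 114 protein-coding genes whose 3' end was the nearest to a near-end peak, 50 did, 43.9% (35.1 to 53.0). The share was 39.9% (33.5 to 46.7) in the 208 protein-coding genes flanking a near-end peak, 27.6% (22.7 to 33.1) in the 279 flanking a far peak, and 27.4% (26.3 to 28.6) in the 5925 flanking any gap with eligible sequence. Genes beside near-end peaks thus had a promoter peak more often than genes beside such gaps in general, while the interval for genes beside far peaks held the general share. Gap length differs between these classes, and its part in the difference was not tested. For 242 of the 410 members neither flank was a protein-coding gene with a promoter peak. Non-coding flanks were counted here as without one, and only 218 members had protein-coding genes on both sides.

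Levels were modest. The deposited signal was divided by the median of each replicate's own list of 30000 regions, because the scale differs between lists. A region with its summit within 100 bp was found in both lists for 384 members, 93.7% (90.9 to 95.6), against 94.1% of all peaks. Median levels were 2.73 in replicate 1 and 3.19 in replicate 3, against 2.96 and 3.48 in all peaks, 3.05 and 3.65 in promoter peaks, and 2.81 and 3.08 in distal intronic peaks. Near-end peaks had medians of 3.04 and 3.35 and far peaks 2.68 and 3.10. The near-end median was above the far median in both replicates, and the member median was below that of promoter peaks in both.

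Agreement between replicates was lower than for peaks at large. Members among the strongest 6844 regions of both replicates numbered 255, 62.2% (57.4 to 66.8), against 69.5% of all peaks. Distal intronic peaks had 63.3% (60.6 to 65.9), so the lower share was not particular to distal intergenic peaks. Promoter peaks had 72.5% and the closer intergenic peaks 69.2%. The share was 70.3% (61.9 to 77.5) for near-end and 58.5% (52.7 to 64.1) for far peaks. Across the 384 members in both lists, Spearman's rho was 0.456 and Pearson's r on the log2 scale 0.546, against 0.574 and 0.664 over the 6443 peaks of all classes in both. Distal intronic peaks had 0.510 and 0.635, between the members and all peaks. Promoter peaks had 0.594 and 0.675, and the closer intergenic peaks 0.582 and 0.655. These correlations are descriptions across peaks of the same 2 libraries, which share a control. The ratio of replicate 3 to replicate 1 had a median of 1.14 and ranged from 0.204 to 6.54. Summits themselves agreed closely, with a median shift from the pooled summit of 10 bp in replicate 1 and 11 bp in replicate 3.

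**Figure D4:**
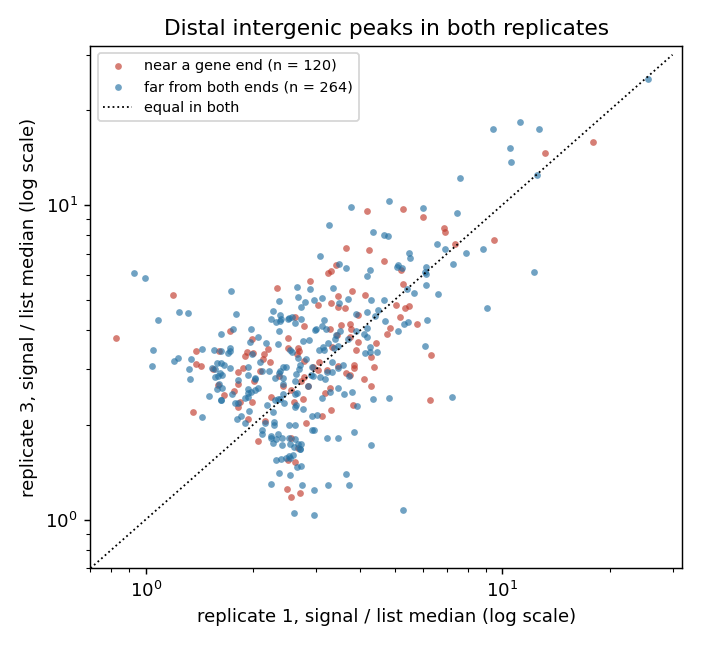
Signal divided by the list median in replicate 1 (x) and replicate 3 (y), both on log scales, for the 120 near-end and 264 far peaks found in both lists. Points spread widely about the line of equality at low levels, and the strongest, D1, sits at 25.6 and 25.2.

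Distal intergenic regions were rarer among strong than among weak regions. They were 5.23% (4.49 to 6.09) of ranks 1 to 3000 of the pooled list and 14.1% (12.9 to 15.4) of ranks 27001 to 30000. The near-end part of these regions fell from 31.2% in the thresholded set to 24.4% (21.6 to 27.5) of those up to rank 15000 and 17.7% (16.1 to 19.4) of those beyond. Of the members, 6.83% were in the strongest 684 of the thresholded set. Members up to 100 bp inside the limit of 1000 bp from a TSS numbered 14 and had median levels of 2.61 and 3.10, while the 18 intergenic peaks up to 100 bp short of it had 2.67 and 3.60.

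The strongest member, D1, lay at chr2R:13035163-13035502 in the 36.8 kb gap between Su(z)2, a Polycomb group gene, and CG13323. Its level was 25.6 in replicate 1 and 25.2 in replicate 3, a mean of 25.4, the highest of the members in both replicates. This gap held 5 members. The neighbouring Polycomb group gene Psc had 3 members in the 10.3 kb gap that separates it from CG13321, and the 50 kb window chr2R:12950001-13000000 held 6. The strongest of those, D37, had levels of 6.10 and 5.56.

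D3, at chr3R:8355587-8355881, lay 1241 bp upstream of stck, which encodes an integrin adhesion protein, and 2920 bp from the end of Atg13, an autophagy gene. Its levels were 12.7 and 17.4. D4, at chr3R:14053418-14053753, lay 3333 bp upstream of foxo, the transcription factor of insulin signalling, with levels of 11.2 and 18.3. D8, at chr2R:22678129-22678634, lay between a long non-coding gene and Ppa, 5105 bp from the end of RYBP, whose product binds Polycomb proteins. It had levels of 12.5 and 12.4 and was rich in G and C, at 57.2%. All 3 stood far above the member medians in both replicates.

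The densest 50 kb window was upstream of chinmo, which encodes a BTB zinc finger factor, on 2L, around D7 at chr2L:1632674-1632978. It held 9 members, and 7 of them lay in a single 20.9 kb gap between the long non-coding genes lncRNA:CR44603 and lncRNA:CR45695. D6 had levels of 9.43 and 17.4, D7 of 10.5 and 15.2, and D9 of 10.6 and 13.7. The other 6 were weaker, from 1.24 to 6.07 in replicate 1 and from 1.82 to 6.87 in replicate 3. D221 and D61 were higher in replicate 1 than in replicate 3 and the other 7 were higher in replicate 3.

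**Figure D5:**
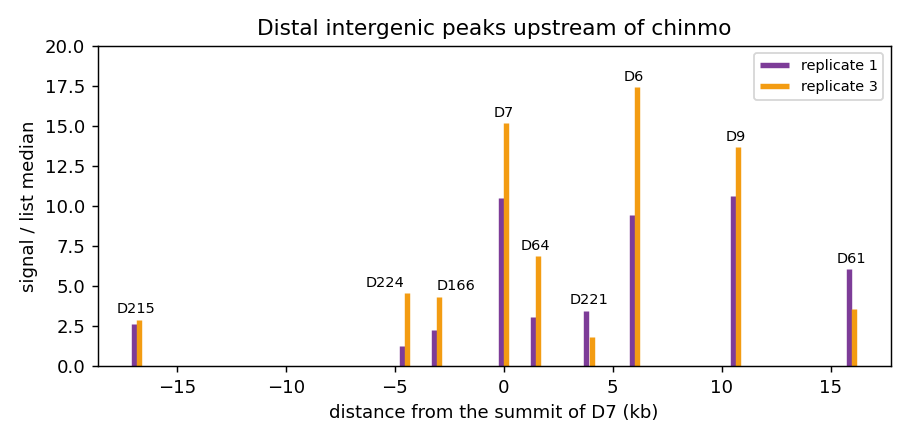
Signal divided by the list median (y) in replicates 1 and 3 for the 9 distal intergenic peaks upstream of chinmo, against distance from the summit of D7 (x, kb). D7, D6 and D9 stand above the other 6 in both replicates.

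Another such window, chr3L:8650001-8700000, held 6 members around hry, the pair-rule repressor hairy, and 2 other windows on 3L held as many. The highest mean level there was that of D155, with levels of 2.98 and 3.99 and a G+C content of 65.7%, the highest of the members. The other 5 had 1.08 to 2.62 in replicate 1 and 1.80 to 4.31 in replicate 3, below the member median in replicate 1 for each of them. In all, 60 gaps held more than 1 member, 155 members together, and 315 of 4784 gaps with eligible sequence held any. Still, members had fewer peaks nearby than peaks at large: another summit lay within 5000 bp of 50.7% of members (45.9 to 55.5) and of 68.6% of all peaks, with median distances of 4732 and 2861 bp.

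Among near-end peaks D2 was the strongest, at chr2R:22802816-22803124, in the 1.34 kb convergent gap between blw, a subunit gene of ATP synthase, and CycB, the gene of cyclin B. It lay 556 bp past the end of CycB and had levels of 18.0 and 15.8. D5, at chr3R:12402967-12403284, lay in the 0.437 kb gap between the ends of Sol1 and Cyp9f2, a cytochrome P450 gene, with 13.2 and 14.6. D12 was 106 bp from the end of wech, with 9.48 and 7.75. These 3 exceeded every other near-end peak in mean percentile.

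The remaining 7 of the strongest near-end peaks had levels of 4.18 to 7.37 in replicate 1 and 6.22 to 9.73 in replicate 3. D18 lay 3 bp past the end of CG5895, in a gap shared with the end of Diap1, an inhibitor of apoptosis, and had 6.87 and 8.46. D20 lay 260 bp from the end of Lkr, the leucokinin receptor gene, with 5.98 and 9.13. D27, 186 bp from the end of Slob, which encodes a potassium channel binding protein, had 4.18 and 9.56. D19 and D23 lay past CG9380 and CG6465, and D48 past lncRNA:CR46240. A 3' end lay within 1000 bp on both sides of 28 of the 128 near-end peaks.

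The other far peaks among the 10 of highest mean percentile were D11, D13 and D14. D11 lay in the gap of 75.0 kb between NijA, a ninjurin gene, and CG43245, which held 6 members, and had 7.63 and 12.2. Its window was the poorest in G+C of all members, at 20.9%. D14 lay 1211 bp past the end of D (Dichaete), a Sox-domain gene of early neural development, with 8.82 and 7.24. The members farthest from a TSS were D172, at 36657 bp, and D110, at 34477 bp, in the same gap as D11, and D238, 33891 bp from the start of vvl, a POU-domain factor gene. D110 had a level of 0.995 in replicate 1 and 5.84 in replicate 3, so the replicates differed strongly there.

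Chromosome 4, which is small and largely heterochromatic, held 6 members. D13 had levels of 7.44 and 9.45, and D21, 3924 bp upstream of zfh2, a zinc finger homeodomain gene, had 9.08 and 4.70. D187, D202 and D375 had 1.62 to 3.46 in replicate 1 and 2.62 to 2.92 in replicate 3. D187 and D202 lay between fuss and toy, a Pax6 gene of eye development. The density was 24.7 per Mb of eligible sequence (9.05 to 53.7), an interval that holds the 12.1 per Mb of all arms. Among the large arms the density was highest on 3L, 14.8 (12.3 to 17.6), and lowest on 2R, 9.88 (7.69 to 12.5). In unique sequence 3L had 21.3 per Mb, and 2R, at 16.4, was no longer the lowest.

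Developmental genes were among the flanking genes, but in small numbers. A gene of the segmentation list flanked 13 members, 3.17% (1.86 to 5.35), and 1.84% of eligible bases. The share was 1.46% when a listed TSS had to lie within 10 kb, a setting for which no share of bases was computed. All 13 were far peaks, and the genes were ems, hry, kni, ptc, en, oc, slp1, slp2 and wg. D25, between the forkhead genes slp1 and slp2, had levels of 7.27 and 6.47. D62 lay 5256 bp upstream of ptc, the Hedgehog receptor gene, with 5.43 and 4.24. D84, between the gap gene kni and cmpy, had 3.36 and 5.45.

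A gene of the dorsoventral and mesoderm list flanked 5 members (1.22%, against 0.578% of eligible bases). D124 lay 6562 bp from the start of Doc2, a T-box gene, with 3.41 and 3.87. D237, between the homeobox genes tin and bap, had 2.36 and 2.92, and D285, between Chsy and sog, an antagonist of BMP signalling, had 1.94 and 3.06. The neural and eye list gave 7 members (1.71%, against 0.771%), which included D14 and D49, the latter beside SoxN with 6.13 and 4.31. Hox genes flanked 1 member (0.244%, against 0.138%), D289, beside Dfd, with 1.81 and 2.95. The share of eligible bases lay inside the interval of the dorsoventral list (0.522 to 2.82) and just below those of the segmentation list and, at 0.829 to 3.48, the neural list. The segmentation members lay in 9 gaps and the neural members in 6. The intervals count each peak separately and may be too narrow. Eligible bases also include sequence that is not unique.

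For the other gene classes the counts were mostly small. Ribosomal protein genes flanked 4 members (0.976%, against 1.28% of eligible bases), of which D59 lay 234 bp past RpL17 with 5.32 and 4.69. Chemoreceptor and odorant-binding genes flanked 7 (1.71%, against 2.78%), and D77, 241 bp past the gustatory receptor gene Gr89a, had 4.83 and 4.07. Cuticle genes flanked 3 (0.732%, against 0.579%), the strongest being D50 beside Cpr76Ba with 3.64 and 7.31. Transfer RNA genes flanked 13 (3.17%, 1.86 to 5.35), with D4 and D33 among them, against 1.44% of eligible bases. The interval lay above that share, but the 13 lay in only 9 gaps. It counts each peak separately and may be too narrow. Small nuclear RNA genes flanked 1 (0.244%, against 0.170%) and microRNA genes 3 (0.732%, 0.249 to 2.13, against 1.78%). Small nucleolar RNA genes flanked 0 of 410, which allows a share of up to 0.732% at 3 counts, against 0.0498% of eligible bases. Long non-coding genes flanked 180 (43.9%, 39.2 to 48.7), against 40.4% of eligible bases.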

How the data were processed

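HmgZ-GFP ChIP was measured in 2 biological replicates. The authors deposited peak lists on dm6, as 30000 regions for each replicate and for the pooled data and a thresholded set of 6844. Per the file headers and layout, each region has a signal value and a −log10 q-value, and the signal scale differs between lists. Which aligner and which caller made them is not given in the sources used here. Read depth is unknown.

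Signal was divided by each list's median, and replicate regions were matched within 100 bp of the pooled summit. Summits were placed on the Ensembl release 115 gene models without transposable elements and pseudogenes. Sequence came from the RefSeq copy of the assembly, and motifs were sought within 100 bp of the summit. Densities used intergenic sequence over 1000 bp from a TSS. Wilson and Poisson intervals are at 95% and cover counting error only. Named members are the 10 of highest mean percentile in each class among those in both lists, the 3 farthest from a TSS, those on chromosome 4, those of 3 dense 50 kb windows and up to 3 per gene list. Members, motifs and gene lists were chosen with earlier results of these data known. The code was tested on simulated data. Python 3.11.15, numpy 2.4.6, pandas 2.3.3 and scipy 1.17.1 were used. Some named members and a sequence are not reported here.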

Additional observations from a re-analysis of the deposited data

How the results depend on the processing

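No paired analysis was possible because there was 1 group. The member count stayed within 1.5 times 410, from 281 with a TSS limit of 2000 bp to 586 with protein-coding genes alone, except in the strongest 50% of peaks, where it was 186, with 67 near-end peaks. Replicate 1 or 3 alone gave 402 to 425 members and 123 to 133 near-end peaks. The near-to-far density ratio was 3.57 in unique 32-mers and 5.93 in the strongest 50%. The share of members found in both lists was 80.7% within 50 bp, 96.8% within 250 bp, 62.2% among the strongest 6844 of each and 96.2% in the strongest 50%. Density in the strongest 50% was 5.68 per Mb on 2L, 4.15 on 2R, 7.39 on 3L, 4.82 on 3R and 4.43 on X. In unique 32-mers it was 16.4 on 2R, 21.3 on 3L and 15.3 on X. Within 50 bp of the summit the CTCF core was in 4.63% of members, the Su(Hw) core in 4.39%, BEAF-32 in 3.17% and DRE in 1.46%. Within 250 bp BEAF-32 was in 21.2% and DRE in 7.07%. Median G+C within 250 bp was 39.8%. Segmentation genes with a TSS within 10 kb gave 1.46%, and the nearest other peak in the strongest 50% lay at a median of 8275 bp. The order of the arms changed in unique 32-mers, where 2R was no longer the lowest of the large arms. Shorter windows and smaller sets lower counts by construction, and the cause of other shifts was not tested. The settings for the density ratio and the single-replicate counts of near-end peaks were chosen after seeing the data. Of the values for the other motifs and gene lists, 28 moved and 88 did not, most of the moves with the window length. The setting by nearest protein-coding gene was not run for non-coding lists. With no read counts, weak differences between replicates could not be set against sampling error.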
